A study of Mus musculus with 6 samples.

Results

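The genes described here are 10 chaperones and stress-response genes of the endoplasmic reticulum (ER), namely Hspa5, Hsp90b1, Pdia4, Pdia6, Dnajb9, Sdf2l1, Herpud1, Creld2, Manf and Edem1. They were taken by name, and every probe set listed with 1 of these symbols alone was used, which gave 10 genes of 18193 and 17 probe sets of 45037. Of the 17, 16 were bright enough to be tested, and all 10 genes had at least 1 of them. Each gene is represented by its probe set with the highest mean signal unless another is named.

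Gene expression was measured in bone marrow cells of mice of strain C57BL/6, cultured in medium with fetal bovine serum and interleukin-7, a cytokine that sustains early B lymphocytes. There were 3 samples of cells lacking the cryptochromes Cry1 and Cry2 (DKO 1 to DKO 3) and 3 of wild type cells (WT 1 to WT 3), each hybridised to 1 oligonucleotide array. Cryptochromes are repressors of the circadian clock. The labels do not say whether the samples of 1 genotype came from separate mice or cultures, or give the age of the mice. Each p-value therefore reflects the variation among these 6 arrays, part of which may be technical.

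Proteins that enter the ER are folded there by chaperones and by disulfide isomerases, and chains that fail to fold are returned to the cytosol for degradation. When unfolded chains accumulate, the sensors IRE1, PERK and ATF6 start the unfolded protein response. IRE1, through the transcription factor XBP1, and ATF6 raise the genes of chaperones and of degradation, whereas PERK slows translation and raises the transcription factor ATF4 and its targets. Cells of the B lineage are known for this response because plasma cells, which secrete antibody in bulk, need XBP1 and a large ER.

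The promoters of 5 of the 10 genes held an element through which the unfolded protein response is known to act. RefSeq promoter windows (assembly GRCm38.p6, 250 bases before to 50 after the annotated start) were at hand for 9 of the 10 genes, with Manf as the exception. The ER stress response element (ERSE), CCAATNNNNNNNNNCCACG on either strand, was found in 4 of the 9, Hspa5, Hsp90b1, Pdia6 and Creld2, and in 37 of 27025 genes with a window (0.137%). Hsp90b1 held it in 2 places. The related element ERSE-II, ATTGG and CCACG with 1 base between them on either strand, shares its parts with ERSE and was found in Herpud1 and in 12 of 27025 genes (0.0444%). The core of the unfolded protein response element, TGACGTGG on either strand, was found in 0 of the 9 and in 193 of 27025 genes (0.714%). A match is a description of the letters and not a measured binding site. The windows of Pdia4, Edem1, Dnajb9 and Sdf2l1 held none of the 3 motifs as spelled here. The 5 windows that hold ERSE or ERSE-II are shown, 5′ to 3′ on the strand of the gene, with the matches in capitals. They lie at chr2:34771840-34772139 (Hspa5, plus strand), chr10:86705395-86705694 (Hsp90b1, minus strand), chr12:17266339-17266638 (Pdia6, plus strand), chr15:88819396-88819695 (Creld2, plus strand) and chr8:94386179-94386478 (Herpud1, plus strand).
Hspa5: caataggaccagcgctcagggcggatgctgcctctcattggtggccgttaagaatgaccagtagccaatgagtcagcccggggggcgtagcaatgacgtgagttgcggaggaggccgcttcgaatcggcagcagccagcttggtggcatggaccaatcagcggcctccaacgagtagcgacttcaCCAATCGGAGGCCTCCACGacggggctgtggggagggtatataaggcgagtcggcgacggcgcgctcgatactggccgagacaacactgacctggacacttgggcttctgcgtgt
Hsp90b1: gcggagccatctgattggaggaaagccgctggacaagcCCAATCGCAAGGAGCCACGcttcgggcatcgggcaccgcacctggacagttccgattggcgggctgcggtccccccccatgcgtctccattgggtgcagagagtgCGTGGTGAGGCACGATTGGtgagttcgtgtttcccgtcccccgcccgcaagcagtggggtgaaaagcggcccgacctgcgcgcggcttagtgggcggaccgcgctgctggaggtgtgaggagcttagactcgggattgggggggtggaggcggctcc
Pdia6: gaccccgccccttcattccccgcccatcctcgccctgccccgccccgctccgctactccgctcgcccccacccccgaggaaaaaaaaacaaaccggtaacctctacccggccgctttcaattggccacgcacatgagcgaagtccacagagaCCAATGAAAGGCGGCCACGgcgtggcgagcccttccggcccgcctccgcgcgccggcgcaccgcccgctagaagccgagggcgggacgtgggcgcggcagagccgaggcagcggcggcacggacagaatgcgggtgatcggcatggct
Creld2: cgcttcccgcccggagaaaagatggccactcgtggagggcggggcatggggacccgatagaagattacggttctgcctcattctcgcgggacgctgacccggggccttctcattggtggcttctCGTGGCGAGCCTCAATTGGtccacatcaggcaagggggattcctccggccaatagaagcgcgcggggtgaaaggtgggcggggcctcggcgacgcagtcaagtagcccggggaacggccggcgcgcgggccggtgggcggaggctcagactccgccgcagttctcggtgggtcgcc
Herpud1: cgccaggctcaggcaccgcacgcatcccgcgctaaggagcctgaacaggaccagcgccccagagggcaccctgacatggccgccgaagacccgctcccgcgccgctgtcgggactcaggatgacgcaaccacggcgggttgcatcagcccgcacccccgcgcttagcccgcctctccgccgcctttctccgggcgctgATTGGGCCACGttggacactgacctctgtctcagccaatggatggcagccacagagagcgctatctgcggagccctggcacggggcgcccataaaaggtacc
Counted back from the annotated start, the match in Hspa5 lay at -65 to -47, those in Hsp90b1 at -212 to -194 and -107 to -89, that in Pdia6 at -98 to -80, that in Creld2 at -126 to -108 and that in Herpud1 at -52 to -42.

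WT 2 stood apart from the other arrays and is given apart throughout. For the Gapdh control probe sets, the signal at the 3′ end over that at the 5′ end, a ratio that rises as RNA is broken, was 1.72, 0.838 and 0.840 on DKO 1 to 3, against 0.904, 132 and 0.841 on WT 1 to 3. That of the Actb controls was 1.47 to 2.05 on the DKO arrays and 1.47 to 1.63 on WT 1 and WT 3, and it was 824 on WT 2. Of the early B cell genes, those of the surrogate light chain were bright on all 6 arrays, Vpreb1 at 13707 or more and Igll1 at 14442 or more, whereas Pax5 (148 to 340) and Rag2 (185 to 603) were dim. Other early B cell markers read 495 to 10162 (Dntt), 844 to 4053 (Rag1), 2005 to 10547 (Ebf1) and 214 to 1739 (Cd79a). Cd79b read 4212 to 22357 and Blnk 7084 to 21100. Precision is limited by the number of arrays. The probe set of Cry1 read 359, 399 and 545 in DKO 1 to 3, against 1533, 1502 and 955 in WT 1 to 3, so every DKO array was below every WT array. That of Cry2 read 162, 178 and 133 in DKO 1 to 3, against 145, 102 and 105 in WT 1 to 3, and the genotypes overlapped. The position of these probe sets relative to the deletions is not known here, so they do not serve as a check of the labels.

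None of the 10 genes passed the test for a difference between the genotypes, and for each of them the DKO and WT arrays overlapped, with and without WT 2. With all 6 arrays, each of the 10 had a higher mean in DKO, by 0.39 to 1.86 on the log2(signal + 16) scale, and the median of the 10 was 0.82. Across all 27022 tested probe sets 64.9% were higher, and the median was 0.21. After each array was centred on its median, WT 2 was lowest of the 6 for all 10 genes, as it was for 53.4% of all tested probe sets. Without WT 2, 4 of the 10 were higher and 6 were lower in DKO. Their median was then -0.12, where 47.4% of all tested probe sets were higher and the median was -0.02. In limma's moderated test, adjusted by Benjamini-Hochberg over all tested probe sets, 0 of the 10 passed the threshold of 0.05, with 0.0074% of all tested probe sets called (2 of 27022), and the adjusted p ran from 0.822 to 0.885. Without WT 2 it was again 0 of the 10, with 0.0259% called (7 of 27022), and the adjusted p ran from 0.948 to 0.995. At an unadjusted p under 0.05, 0 of the 10 were counted in either fit, where 3.12% of all tested probe sets were with all 6 arrays and 4.35% without WT 2. Groups without overlap were found in 10.3% of all tested probe sets with all 6 arrays and in 18.5% without WT 2.

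**Figure D1:**
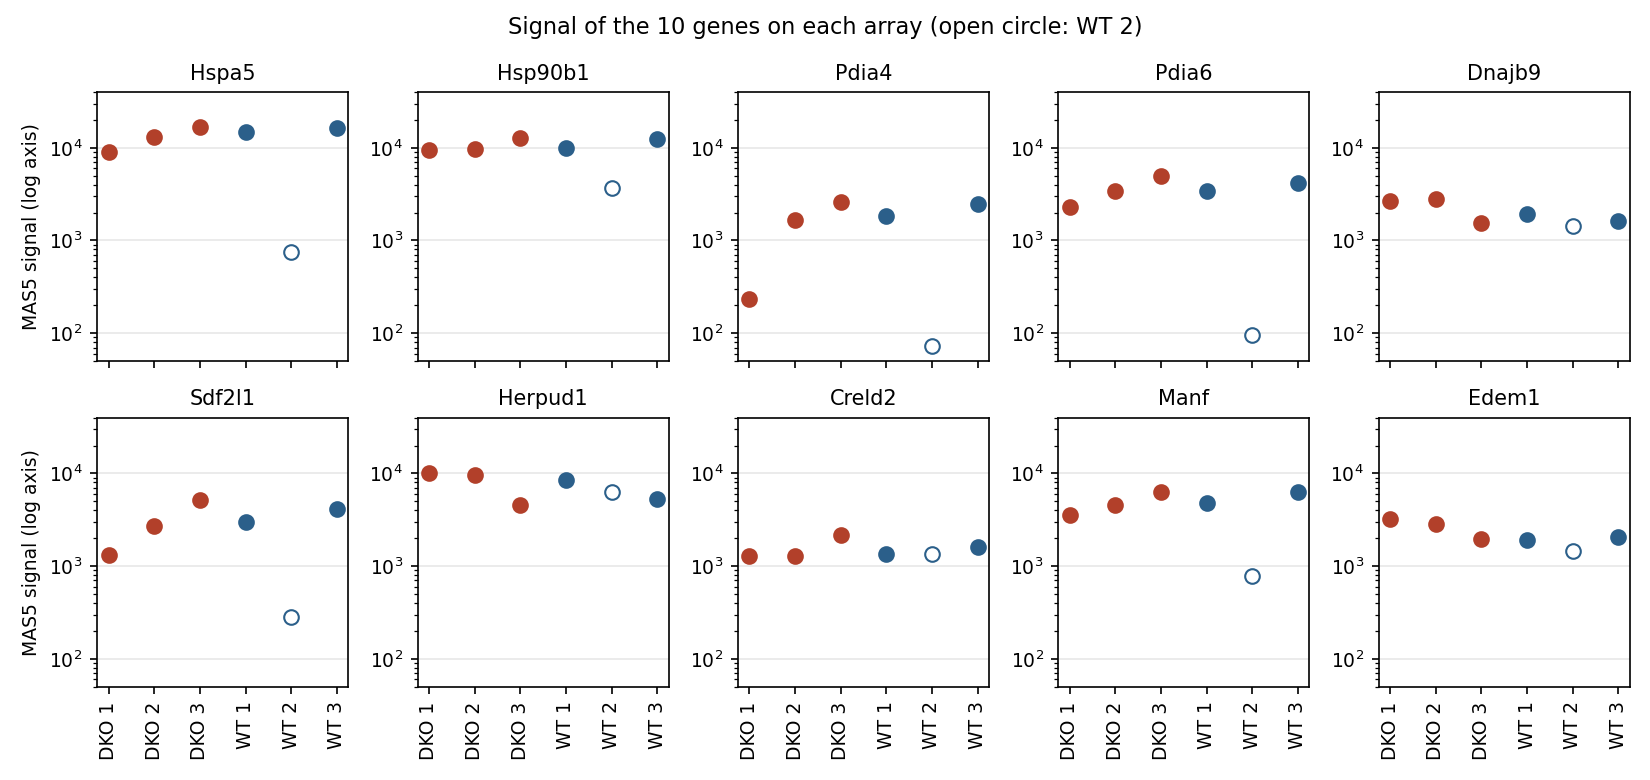
MAS5 signal of the 10 genes on a log axis, 1 point per array, DKO in red and WT in blue, with WT 2 as an open circle. WT 2 lay far below the other arrays for Hspa5 (757), Pdia6 (94.9), Sdf2l1 (280) and Manf (786), and the DKO points overlapped those of WT 1 and WT 3 in every panel.

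The chaperones that bind unfolded chains in the ER overlapped between the genotypes, and WT 2 read lowest for each. Hspa5 encodes BiP, the HSP70 of the ER, which also holds the 3 stress sensors inactive until unfolded chains draw it away. It read 8999, 13107 and 16863 in DKO 1 to 3, against 14822, 757 and 16160 in WT 1 to 3. DKO 1 was the lowest array apart from WT 2 and DKO 3 was the highest, so the genotypes overlapped. The log2 difference was 1.46 ± 1.37 (SE) over all 6 arrays and -0.32 ± 0.32 (SE) without WT 2, where its 95% interval ran from -1.07 to 0.44. Hsp90b1 encodes GRP94, the HSP90 of the ER, which folds Toll-like receptors and integrins among others. It read 9582, 9777 and 12649 in DKO 1 to 3, against 9832, 3718 and 12451 in WT 1 to 3. Here the range of the DKO arrays lay almost on that of WT 1 and WT 3. The log2 difference was 0.77 ± 0.71 (SE), and without WT 2 it was -0.08 ± 0.25 (SE), with an interval of -0.69 to 0.52. Sdf2l1, a small ER protein found in complex with BiP and its J-domain partners, read 1311, 2715 and 5194 in DKO 1 to 3, against 2959, 280 and 4162 in WT 1 to 3. Its DKO arrays spanned 2.22 on the log2 scale, and the log2 difference was 1.10 ± 1.29 (SE), and without WT 2 -0.42 ± 0.60 (SE).

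Of the disulfide isomerases, Pdia4 had the widest spread of the 10 genes among the DKO arrays, and Pdia6 a narrower one. Pdia4, also called ERp72, read 234, 1663 and 2611 in DKO 1 to 3, against 1851, 72.5 and 2459 in WT 1 to 3. DKO 1 was far below DKO 2, which lay close to WT 1, and the DKO arrays spanned 3.64 on the log2 scale. The log2 difference was 0.79 ± 1.66 (SE). Without WT 2 it was -1.07, the largest of the 10 in size, with a standard error of 0.97 and an interval of -3.37 to 1.22. Pdia6, an isomerase also known to bind the sensor IRE1, read 2279, 3443 and 4907 in DKO 1 to 3, against 3396, 94.9 and 4122 in WT 1 to 3. DKO 1 was again lowest apart from WT 2 and DKO 3 highest, with a log2 difference of 1.86 ± 1.58 (SE), and -0.16 ± 0.39 (SE) without WT 2. The other Pdia4 probe set was too dim to be tested, at 2.02 to 20.7 in DKO and 14.4 to 23.8 in WT.

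Edem1, Dnajb9 and Herpud1, which act in ER-associated degradation, were higher on DKO 1 and DKO 2 than on DKO 3. Edem1, a mannosidase-like protein that hands misfolded glycoproteins to degradation, read 3211, 2822 and 1947 in DKO 1 to 3, against 1935, 1452 and 2071 in WT 1 to 3. DKO 1 and DKO 2 were above every WT array, and DKO 3 lay between WT 1 and WT 3. The log2 difference of Edem1 was 0.84 ± 0.52 (SE), and 0.36 ± 0.23 (SE), with an interval of -0.18 to 0.89 without WT 2. Its dimmer probe set did not share this order, at 1364, 1491 and 1233 in DKO 1 to 3, against 1304, 1717 and 1310 in WT 1 to 3. After centring on array medians, DKO 1 was below DKO 3 for that probe set. Dnajb9, the ER J-domain protein ERdj4, which recruits BiP to the sensor IRE1, read 2645, 2780 and 1541 in DKO 1 to 3, against 1919, 1447 and 1631 in WT 1 to 3. Again DKO 1 and DKO 2 exceeded all WT arrays and DKO 3 did not. The log2 difference was 0.75 ± 0.50 (SE), and without WT 2 it was 0.32 ± 0.25 (SE), with an interval of -0.27 to 0.91. Herpud1, a membrane protein that organises the degradation complex around the ligase HRD1, read 10069, 9495 and 4608 in DKO 1 to 3, against 8457, 6262 and 5268 in WT 1 to 3. DKO 3 was its lowest array by signal, and the log2 difference was 0.53 ± 0.45 (SE), and without WT 2 0.17 ± 0.31 (SE).

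Creld2 and Manf, ER proteins raised by stress that can be secreted, had the same order of arrays as the chaperones, low on DKO 1 and high on DKO 3. Manf read 3529, 4606 and 6333 in DKO 1 to 3, against 4738, 786 and 6248 in WT 1 to 3. Its lowest array apart from WT 2 was DKO 1 and its highest was DKO 3, and the log2 difference was 1.02 ± 1.02 (SE), and without WT 2 -0.23 ± 0.34 (SE). Creld2 read 1270, 1286 and 2148 in DKO 1 to 3, against 1352, 1360 and 1616 in WT 1 to 3. WT 2 was not low by signal here, but it became the lowest after each array was centred on its median. The log2 difference of Creld2 was 0.39 ± 0.53 (SE), and 0.02 ± 0.36 (SE), with an interval of -0.82 to 0.86 without WT 2.

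**Figure D2:**
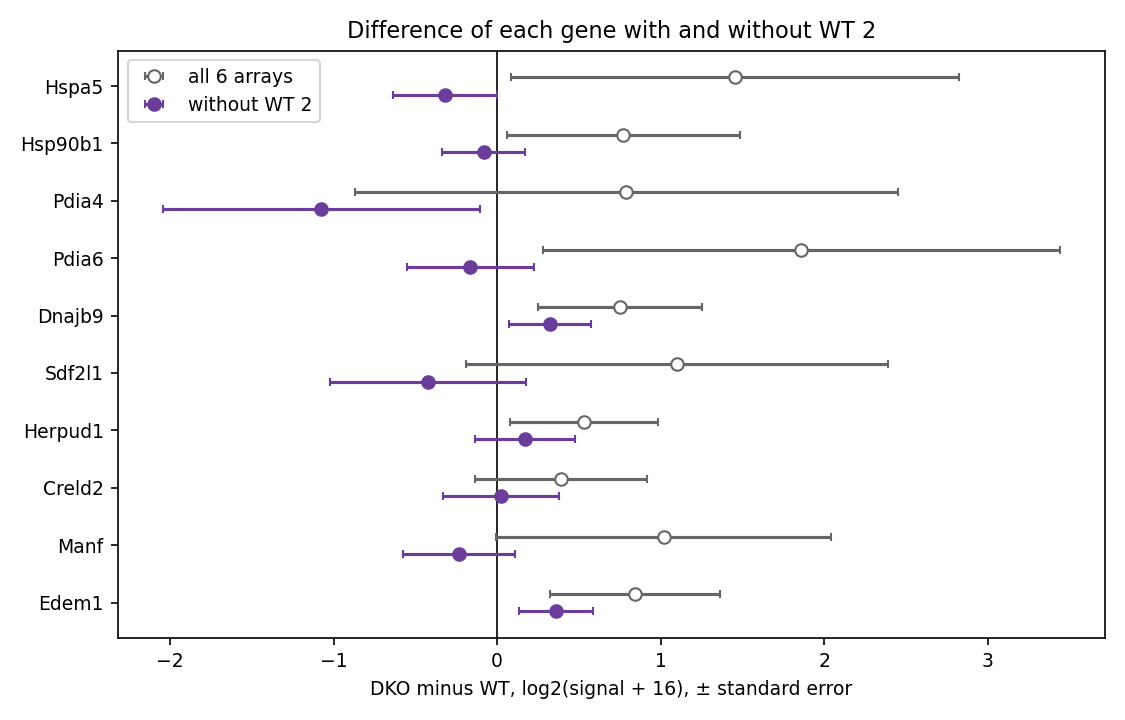
Log2 difference of each gene, DKO minus WT on the log2(signal + 16) scale, with its standard error as bars, over all 6 arrays (open) and without WT 2 (filled). Without WT 2 the differences moved to between -1.07 (Pdia4) and 0.36 (Edem1).

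The order of arrays that 7 of the genes shared did not follow genotype. Leaving WT 2 aside, DKO 1 was the lowest and DKO 3 the highest of the 5 arrays for Hspa5, Hsp90b1, Pdia4, Pdia6, Sdf2l1, Creld2 and Manf, 7 of the 10, where 13.8% of all tested probe sets had this order. Counted by probe set, 8 of the 16 tested ones of the 10 genes had it. The dimmest tested probe sets of Hsp90b1 and Pdia6, and 1 of the other Hspa5 probe sets, had WT 3 highest instead. The remaining 3 genes, Dnajb9, Herpud1 and Edem1, were higher in both DKO 1 and DKO 2 than in DKO 3, as were 31.8% of all tested probe sets. Each of the 10 genes spanned more among its 3 DKO arrays than the genotypes differed without WT 2. The share of all tested probe sets that did so was not counted, so this is not read as a trait of the 10. The span among the DKO arrays was over 1 on the log2 scale for 5 of the 10. These were Hspa5, Pdia4, Pdia6, Sdf2l1 and Manf, where 22.4% of all tested probe sets spanned as much. Those 5 genes and Hsp90b1 were also the 6 for which WT 2 lay below the lowest other array by over 2, as it did for 13.8% of all tested probe sets. The Gapdh ratio given above was highest on WT 2 and next highest on DKO 1, and its part in this order was not tested.

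**Figure D3:**
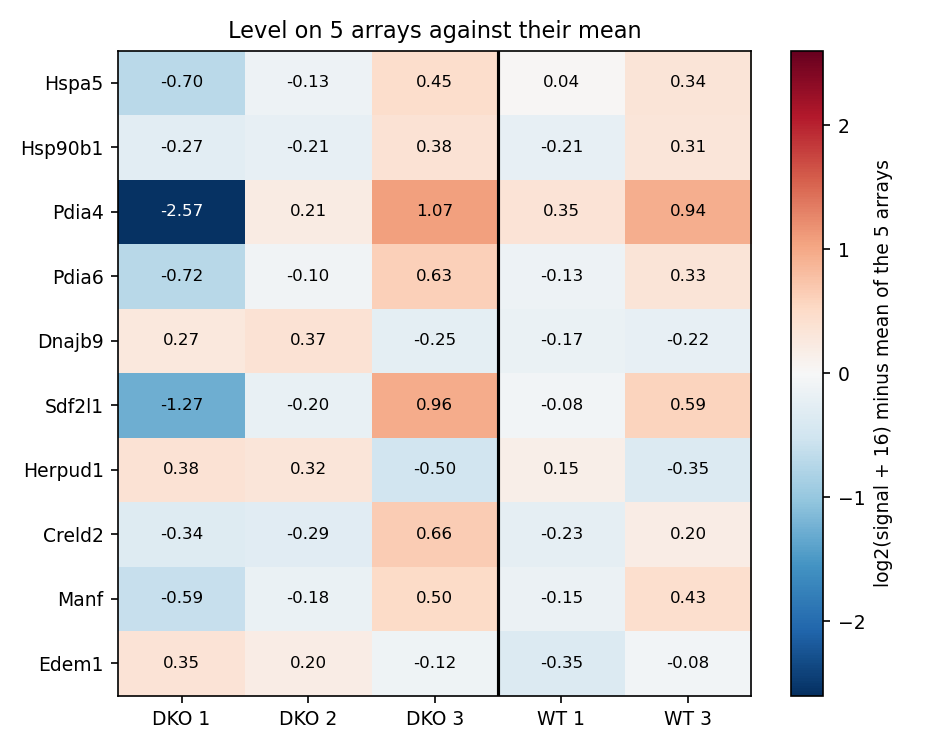
Level of each gene on the 5 arrays other than WT 2, as log2(signal + 16) minus the mean of the 5, DKO arrays left of the line and WT arrays right of it. The 7 chaperone and folding genes were lowest on DKO 1 (-0.27 to -2.57) and highest on DKO 3 (0.38 to 1.07), and Dnajb9, Herpud1 and Edem1 were above the mean on DKO 1 and DKO 2.

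Cell type markers also differed among the DKO arrays. The summed signal of 11 granulocyte markers was 604, 554 and 27475 on DKO 1 to 3, against 74596, 178433 and 19047 on WT 1 to 3, and all 11 had a lower mean in DKO, with and without WT 2 (0 passed the threshold). That of 10 macrophage and monocyte markers was 17101, 9908 and 23267 on DKO 1 to 3, against 43579, 62278 and 13833 on WT 1 to 3, with 9 of 10 lower in DKO (0 passed). Csf1r and Tyrobp led that list by p, with log2 differences of -2.04 and -1.96. DKO 3 thus held the highest level of both marker lists among the DKO arrays, as it did of the 7 genes, and the part of these cells in the order of the arrays was not tested. Calgranulin S100a8, a defining granulocyte gene, read 190, 186 and 10377 in DKO 1 to 3, against 24760, 94059 and 8306 in WT 1 to 3. In bulk samples fewer cells of a type and less RNA per cell cannot be told apart.

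Among plasma cell genes, 1 passed the test. Of 7 tested plasma cell markers, 6 had a higher mean in DKO, and 4 of 7 without WT 2. Igha, the IgA heavy chain constant gene, rose in the knockout cells. It read 19431, 14896 and 6180 in DKO 1 to 3, against 30.7, 162 and 44.9 in WT 1 to 3, and it was the only marker called (limma adjusted p = 0.0435). This call was kept in 8 of 18 other fits and lost in 10, with quantile normalization (adjusted p = 0.0989), centring on the tested probe sets (0.0633), no centring (0.103), a pseudocount of 1 (0.0582), the replicate block (0.333) and when any array but WT 2 was left out (0.0843 to 0.481). The log2 difference lay between 6.73 and 8.17 in all 19. Another tested Igha probe set was also called with all 6 arrays (limma adjusted p = 0.0490), and the last was not (0.109). The 2 probe sets called with all 6 arrays were thus both of Igha. Jchain, which joins IgA and IgM subunits, read 6321, 2655 and 1907 in DKO 1 to 3, against 314, 550 and 82.3 in WT 1 to 3 (adjusted p = 0.428). Both genes were highest on DKO 1, the array lowest for Hspa5 and Pdia4 apart from WT 2. The summed signal of 8 plasma cell markers was 41898, 35675 and 23446 on DKO 1 to 3, against 16234, 17158 and 18122 on WT 1 to 3. Igha and Jchain carried the difference, since the sum of the other 6 was 16147, 18125 and 15359 on DKO 1 to 3, against 15890, 16446 and 17994 on WT 1 to 3. These 6 are named here after their values were seen, and Tnfrsf17 was too dim to be tested. Sdc1 had a log2 difference of -1.24 (-0.91 without WT 2), and Irf4 and Prdm1 had 0.73 and 0.07 (-0.52 and -0.30 without WT 2). Mzb1 and Fkbp11 had 0.49 and 0.60, and each had 0.27 without WT 2. None of the tested ones passed the threshold. The summed signal of 10 pro-B and pre-B cell markers was 105625, 109558 and 66582, against 71371, 136347 and 72627 in the same order, with 6 of 10 higher in DKO and 0 past the threshold. By p these were led by the terminal transferase Dntt, at 2.17 (2.53 without WT 2), and the adaptor Blnk, at 1.18 (0.66 without WT 2). Dntt read 10162, 10083 and 1079 in DKO 1 to 3, against 1314, 3466 and 495 in WT 1 to 3, so the genotypes overlapped. The other Dntt probe sets gave 0.76 and 2.54, and 0.66 and 1.46 without WT 2. The recombinase genes Rag1 and Rag2, named after their values were seen, were at -0.06 and -0.26, and at -1.05 and -1.08 without WT 2, where every DKO array was below WT 1 and WT 3 for Rag2 (limma adjusted p = 0.948 for each). Of 6 tested T and NK cell markers, 5 were higher in DKO (0 passed), led by Klrd1 (1.65) and by Cd3d, which read 155, 295 and 8.43 in DKO 1 to 3, against 10.6, 14.0 and 7.90 in WT 1 to 3.

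Probe sets of the same gene gave opposite readings on WT 2, which after centring on array medians was lowest for 14 of the 16 tested probe sets and highest for the other 2. Of the 5 genes with over 1 tested probe set, Hspa5 had 3. By signal they read 757, 103 and 11685 on WT 2, where the other 5 arrays read 8999 to 16863, 2998 to 8269 and 1620 to 2501. So the first and second probe sets were lowest on WT 2, and the third was highest there, as were 21.6% of all tested probe sets. Without WT 2 the log2 differences of the 3 were -0.32, -0.38 and -0.11. Which probe sets lie nearest the 3′ end was not analysed here.

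The second Hsp90b1 probe set was the only 1 of the 16 whose genotypes did not overlap. It read 1073, 1284 and 1594 in DKO 1 to 3, against 2040, 4513 and 1931 in WT 1 to 3. Every DKO array was below every WT array, as for 3.29% of all tested probe sets. In either direction, 10.3% of all tested probe sets did not overlap with all 6 arrays, and 18.5% without WT 2. The log2 difference was -0.68 ± 0.41 (SE) (limma adjusted p = 0.822), and -0.62 ± 0.28 (SE), with an interval of -1.29 to 0.05 without WT 2 (adjusted p = 0.948). The brighter Hsp90b1 probe set read -0.08 in that fit, so the gene's probe sets did not give 1 size. The second probe sets of Herpud1, Edem1 and Pdia6 gave 0.05, 0.04 and -0.31, beside 0.17, 0.36 and -0.16 for the brighter ones, and that of Pdia6 was dim, at 51.6 to 90.9 in DKO and 80.4 to 103 in WT.

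**Figure D4:**
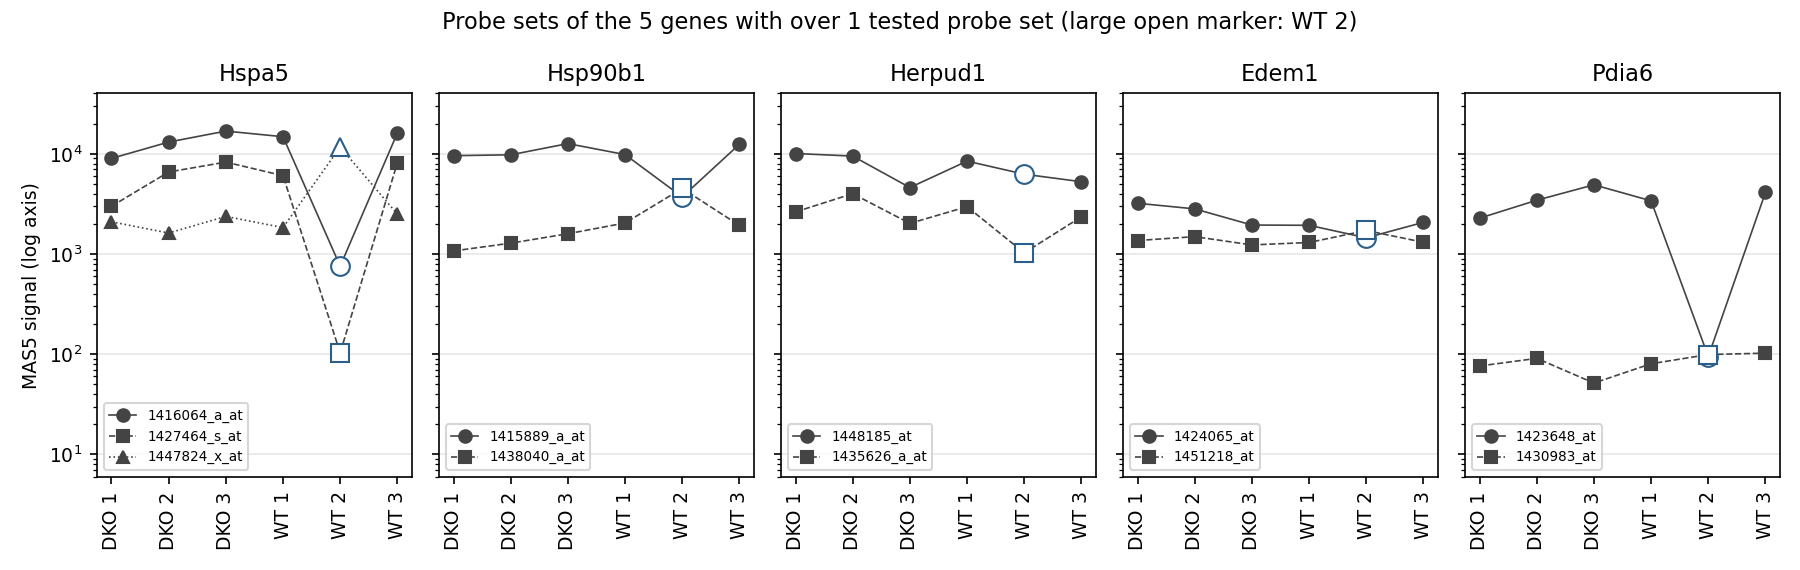
MAS5 signal on a log axis of each tested probe set of the 5 genes that have over 1, arrays along the horizontal axis, with lines joining 1 probe set's values and large open markers for WT 2. On WT 2 the first and second Hspa5 probe sets were lowest (757 and 103) and the third highest (11685), and the second Hsp90b1 probe set was lower on all 3 DKO arrays than on any WT array.

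Other chaperones and folding enzymes of the ER had DKO 3 high and DKO 1 low as well. Of 17 tested, 12 had a higher mean in DKO with all 6 arrays and 4 without WT 2, and 0 passed the threshold in either fit. Their median log2 difference was 0.39, and -0.14 without WT 2. DKO 3 was the highest of the 5 arrays for 13 of the 17, where it was for 31.6% of all tested probe sets. DKO 1 was the lowest for 11, where it was for 27.5%. Calr, which encodes the lectin chaperone calreticulin, read 7876, 8528 and 11052 in DKO 1 to 3, against 8492, 2625 and 10861 in WT 1 to 3. It kept the order of the 7 genes, and its log2 difference without WT 2 was -0.10 ± 0.27 (SE). Canx, its membrane-bound relative calnexin, differed by 0.32, and by 0.02 ± 0.20 (SE) without WT 2. By smallest p the list was led by Ero1b, an oxidase that supplies disulfides, at 0.98 (0.50 without WT 2), P4hb, the founding disulfide isomerase, at 1.44 (-0.15 without WT 2), and the prolyl isomerase Ppib at -0.33 (-0.13 without WT 2). The other tested Ppib probe set gave 0.75 (-0.22 without WT 2). The windows of Calr, Canx, Dnajc3 and Ero1b held the ER stress response element and that of Dnajb11 held ERSE-II, out of 14 windows in this list.

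Genes of ER-associated degradation and of the sensors showed no call. Of 12 other degradation genes, 9 were higher in DKO, and 6 without WT 2, with medians of 0.28 and -0.03. DKO 1 and DKO 2 were both above DKO 3 for 4 of the 12, a share near the 31.8% of all tested probe sets. Syvn1, which encodes the ligase HRD1, read 7638, 7672 and 5410 in DKO 1 to 3, against 5060, 3449 and 5625 in WT 1 to 3. Like Edem1 and Dnajb9, it had DKO 1 and DKO 2 above every WT array, and its log2 difference was 0.87 (0.34 without WT 2). The windows of Syvn1 and Derl3 held ERSE, out of 10 in the degradation list. Edem2 and the channel component Derl2 differed by 1.75 and 1.21, and by 0.15 and -0.08 without WT 2. Of 9 sensors and transcription factors, 7 were higher in DKO, and 6 without WT 2, with medians of 0.44 and 0.06. Xbp1 read 14170, 11034 and 7522 in DKO 1 to 3, against 10777, 23097 and 8977 in WT 1 to 3. Its log2 difference was 0.00 ± 0.28 (SE), and 0.08 ± 0.21 (SE) without WT 2. Its other tested probe sets gave 1.64, 1.88 and -0.17, and 0.15, 0.15 and -0.31 without WT 2. These signals do not show whether Xbp1 RNA was spliced. Eif2ak3, the sensor PERK, differed by 1.32 (0.20 without WT 2), Creb3l2 by 1.13 (0.35) and Atf6b by 0.59 (0.06). The other tested probe set of Creb3l2 had the opposite sign, at -0.30 (-0.28 without WT 2). That of Eif2ak3 gave 0.11 (0.26 without WT 2).

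In the branch of PERK and ATF4 most genes had a higher mean in DKO with and without WT 2, and 0 passed the threshold in either fit. Of 12 tested genes, 11 had a higher mean in DKO, and 9 without WT 2, with medians of 0.80 and 0.33. Chac1, which degrades glutathione, read 856, 536 and 133 in DKO 1 to 3, against 125, 228 and 80.8 in WT 1 to 3. DKO 1 and DKO 2 were well above all WT arrays and DKO 3 was near WT 1. The log2 difference was 1.79 ± 0.59 (SE) (limma adjusted p = 0.822), and 1.81 ± 0.64 (SE) without WT 2 (adjusted p = 0.948). Trib3, a pseudokinase that ATF4 and CHOP raise, read 248, 363 and 92.7 in DKO 1 to 3, against 81.4, 75.4 and 61.9 in WT 1 to 3. All 3 DKO arrays exceeded every WT array, with a log2 difference of 1.64, and 1.33 without WT 2, and the other Trib3 probe set gave 1.81 and 2.02. Asns, asparagine synthetase, differed by 1.29 (0.95 without WT 2). Ddit3, which encodes CHOP, read 784, 786 and 518 in DKO 1 to 3, against 421, 698 and 494 in WT 1 to 3, and the genotypes differed by 0.68 on the log2 scale (0.55 when WT 2 was left out). Atf4 itself differed by 0.97, and by 0.14 without WT 2, and its other probe set by -0.21 and 0.17. Without WT 2 the genotypes did not overlap for Chac1, Trib3, Asns and Ddit3, 4 of the 12, where 18.5% of all tested probe sets did not overlap. None of the 3 motifs was found in the 13 windows of this branch.

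The machinery of ER entry gave differences on either side. Of 14 tested genes of translocation and signal peptide processing, 11 were higher in DKO, and 7 without WT 2, with medians of 0.26 and -0.01. Sec11c, a catalytic subunit of signal peptidase, differed by -0.53 (-0.50 without WT 2), with every DKO array (5788 to 7000) below every WT array (8909 to 18900). Its other tested probe set differed by -0.10 (-0.66 without WT 2), with DKO at 265 to 345 and WT at 289 to 566. Without WT 2 the genotypes did not overlap for 4 of the 14, where 18.5% of all tested probe sets did not overlap. Of these, Sec11c was lower in DKO, and Sec62, Spcs1 and Tram1 were higher. Spcs2 and Tram1 differed by 1.30 and 1.05, and by 0.19 and 0.17 without WT 2. No gene of this list passed the threshold in either fit.

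**Figure D5:**
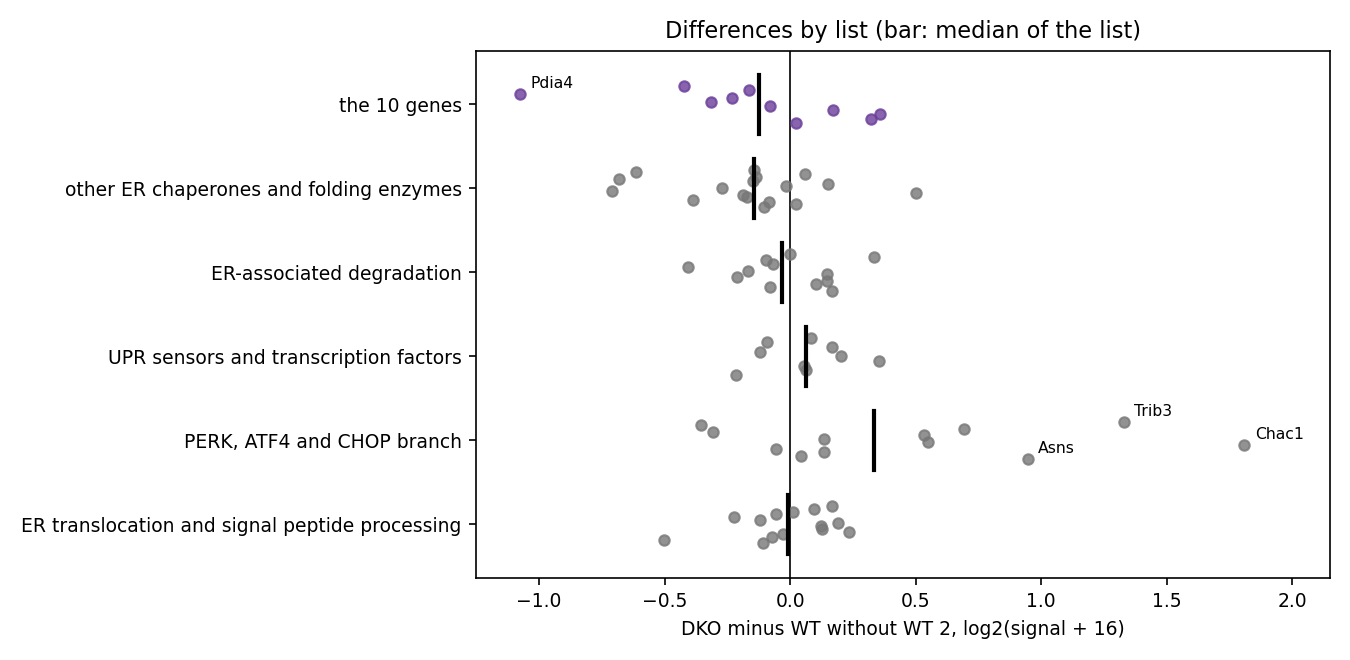
Log2 difference of each tested gene, DKO minus WT without WT 2, by list, with a bar at the median of each list and names beside differences over 0.9 in size. The 10 genes had a median of -0.12 and the branch of PERK, ATF4 and CHOP 0.33, with Chac1 at 1.81 and Trib3 at 1.33.

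The likeness of other genes was measured by the root-mean-square distance of their centred log2 values from the mean profile of the 10. Over the 6 arrays the nearest were Ttc1 (0.039), Hikeshi (0.062), Mphosph6 (0.066), Zc3h15 (0.079) and Ntan1 (0.084), where the median of 12617 genes was 1.02. Over the 5 arrays other than WT 2 they were Dcun1d1 (0.018), Zc3h15 (0.023), Xxylt1 (0.032), Ttc1 (0.034) and Zfp472 (0.034), and the median distance was 0.36. Ttc1 and Zc3h15 were near in both.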

How the data were processed

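Total RNA of 3 DKO and 3 WT samples was biotin-labelled and hybridised to 6 arrays, per the labels' protocols. The authors deposited 1 linear intensity per probe set and array, from MAS5 according to the submitters' processing notes. Leaving out the highest and lowest 2% of values, the mean was 500 on each array. Detection calls, batches and a genome build were not given in the sources used here. The array's annotation named 34945 of 45037 probe sets with 1 gene, and symbols were updated through gene identifiers (34741 matched, GRCm38.p6).

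Values were transformed as log2(intensity + 16) and centred on each array's median, so differences of dim probe sets are understated. The 27022 probe sets whose mean exceeded percentile 40 were tested with limma 3.58.1 in R 4.3.3 (group as the only term, variance trend, two-sided, Benjamini-Hochberg over all of them, threshold 0.05). On simulated data with extra spread on WT 2, it recovered 0%, 2% and 74% of log2 changes of 1, 2 and 4, with 0 false calls. With equal spread it recovered 18%, 84% and 100% of these, with 16 false calls. Python 3.11.15, numpy 2.4.6, pandas 2.3.3 and matplotlib 3.10.9 made tables and figures. The members and lists were chosen with earlier results of these data known. Lists covered other ER chaperones, ER-associated degradation, sensors, the PERK, ATF4 and CHOP branch, ER translocation, cytosolic and mitochondrial chaperones, and markers of plasma, pro-B and pre-B, macrophage, granulocyte and T and NK cells. The text names all probe sets of the 10 genes, the genes of each list called or else with the smallest p (3 for pathways, 2 for markers), the 5 nearest profiles, and Xbp1, Atf4, Ddit3, Calr, Canx, Igha and Jchain. Some other genes in the text, among them Vpreb1, Igll1, Pax5, Rag2, Sec62 and Spcs1, were not picked by this rule. Protein sequences were not analysed here. Alternatives were other normalizations, pseudocounts, filters, variance models, array weights, a replicate block and each array left out.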

Additional observations from a re-analysis of the deposited data

How the results depend on the processing

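In all 18 other fits 0 of the 10 genes passed the threshold. A minimum log2 difference of 1 can only remove calls, so it was no further check here. The median log2 difference of the 10 was 0.82. It ran from -0.12 to 1.56 with 1 array left out in turn, the lowest without WT 2, and was negative with array weights (-0.12 from a weighting by limma's gene-by-gene method, since the other method stopped before convergence) and, chosen after seeing the data, with quantile normalization without WT 2 (-0.11). In the other fits and with the mean of all tested probe sets it was positive. Hspa5, Hsp90b1, Pdia4, Pdia6, Sdf2l1 and Manf read -0.32, -0.082, -1.07, -0.16, -0.42 and -0.23 without WT 2, the lowest of the fits that leave out 1 array, and 2.42, 1.33, 1.87, 2.99, 2.03 and 1.79 without WT 3, the highest. They read -0.29, -0.080, -0.90, -0.12, -0.43 and -0.20 with array weights, and -0.28, -0.080, -1.07, -0.14, -0.42 and -0.21 with quantile normalization without WT 2. Creld2 read -0.061 with quantile normalization and -0.11 with array weights. The cause was not tested. Dnajb9, Edem1 and Herpud1 stayed positive in every fit.

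Calls over all probe sets, 2 with all 6 arrays, were 0 with quantile normalization, with centring on the tested probe sets, without centring, with a pseudocount of 1 and with the replicate block, 1 with a filter at percentile 60 and with robust variances, 922 with array weights, 0 to 7 with 1 array left out (7 without WT 2) and 5 with quantile normalization without WT 2. Deviations of same-numbered arrays from their group means had correlations of -0.15, -0.0019 and 0.33. The 0.33, of DKO 3 and WT 3, was the highest between the genotypes, and DKO 1 and WT 2 had 0.32. In level, DKO 3 and WT 3 were also the most alike of any 2 arrays (correlation 0.984). Pairs are not stated in the labels, so the numbers were not taken as pairs. Under the replicate block the median of the 10 was 0.82.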

Other observations

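Chaperones of the cytosol and mitochondria, 9 tested, had 5 higher and 4 lower means in DKO, and 2 higher and 7 lower without WT 2, with medians of 0.11 and -0.11 and 0 past the threshold. The inducible HSP70 genes were the exception in direction without WT 2. Hspa1b read 1740, 1202 and 432 in DKO 1 to 3, against 397, 1423 and 432 in WT 1 to 3, and Hspa1a read 218, 154 and 67.4 in DKO 1 to 3, against 78.2, 241 and 38.2 in WT 1 to 3. Their log2 differences were 0.93 and 0.76, and 1.18 and 1.04 without WT 2 (limma adjusted p = 0.948 for each). The other Hspa1b probe sets gave 1.93 and 1.75, and 1.26 and 1.11 without WT 2. Hspa1a and Hspa1b are near-identical copies, so their probe sets may share signal. Hspa8, the constitutive HSP70 of the cytosol, differed by -0.29, and by -0.034 ± 0.15 (SE) without WT 2, and its other probe sets ranged from -0.39 to 1.16, and from -0.14 to 0.27 without WT 2.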
